A study of Mus musculus with 2 samples.

Results

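Gjb1, Gjb2, Gjb5, Gjb6, Gja1 and Gja3 are 6 mouse connexin genes, taken by their symbols from the gene annotation of the series. They are 6 of its 27998 mouse genes and 6 of its 20 connexin genes. The label under which they were grouped, connexin genes with a single coding exon, was checked against the models: in all 6 genes every protein-coding transcript held its coding sequence in 1 exon. The 6 genes together had 10 annotated transcripts.

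Connexins are membrane proteins that assemble into ring-shaped hemichannels. Hemichannels of adjoining cells dock through their extracellular loops, held by conserved cysteines, and form gap junction channels that pass ions and small molecules. In the cochlea the supporting cells and the connective tissue cells of the lateral wall are coupled in this way, mainly through the products of Gjb2 and Gjb6, and loss of GJB2 function is a frequent cause of inherited deafness in humans. Of the others, Gjb1 is known for liver and for the myelinating cells of peripheral nerve, Gjb5 for skin and placenta, Gja1 for heart muscle and many other tissues, and Gja3 for the fibre cells of the lens.

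The series compared cochlear cells in a GFP group and an Ikzf2 group, with 1 library in each and no replicate. All animals were Myo15-Cre;Ai14 mice at postnatal day 8, in which the Myo15 promoter drives Cre in hair cells and Cre switches on the tdTomato reporter of Ai14. The GFP group received Anc80-GFP virus as the control and the Ikzf2 group Anc80-Ikzf2 virus, where Anc80 is a designed adeno-associated virus shell and Ikzf2 the gene of the transcription factor Helios. Cells with tdTomato were sorted and captured with a droplet kit that reads the 3' ends of transcripts. The values below are positions and lengths in the gene annotation, on mouse assembly GRCm38; they carry no sampling error and no measurement of either library. Expression of the 6 genes, library depth, and marker genes of the sorted cells were not analysed here.

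The coding sequences are shown first, because the single coding exon holds each protein whole. The lines give the first 30 coding bases of each gene, 5' to 3', with the start codon in capitals. They were read from the GENCODE M21 transcripts, whose coding sequences lie at the same GRCm38 positions as in the deposited annotation for all 6 genes.
Gjb2, chr14:57100720-57100749, minus strand: ATGgattggggcacactccagagcatcctc
Gjb6, chr14:57124773-57124802, minus strand: ATGgactgggggaccctgcacaccgtcatc
Gjb1, chrX:101384168-101384197, plus strand: ATGaactggacaggtctatacaccttgctc
Gjb5, chr4:127356320-127356349, minus strand: ATGaactggagtgtttttgagggactcctg
Gja1, chr10:56387547-56387576, plus strand: ATGggtgactggagcgccttggggaagctg
Gja3, chr14:57036884-57036913, minus strand: ATGggcgactggagcttcctggggcggctg

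Of these 30 positions, 4 held the same base in all 6 genes, and 22 did in Gjb2 and Gjb6. The alpha pair, Gja1 and Gja3, shared 24. The next lines lie in the first extracellular loop, which holds 3 of the conserved cysteines. They end at the last cysteine codon of that loop, and capitals mark the last 2 of its 3 cysteine codons.
Gjb2, chr14:57100558-57100587, minus strand: acgctccagcctggcTGCaagaatgtaTGC
Gjb6, chr14:57124611-57124640, minus strand: actctgcagccagggTGCaagaacgtcTGC
Gjb1, chrX:101384330-101384359, plus strand: accctccagccgggcTGCaacagcgtcTGC
Gjb5, chr4:127356158-127356187, minus strand: accaggcaaccgggcTGTaccaatgtcTGC
Gja1, chr10:56387712-56387741, plus strand: actcaacaacccggtTGTgaaaatgtcTGC
Gja3, chr14:57036719-57036748, minus strand: acacagcagccaggcTGTgagaacgtcTGC

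Here 16 of the 30 positions held the same base in all 6 genes, and 24 did in Gjb2 and Gjb6. The highest count of a pair was 25, in Gjb6 and Gja3, so the cochlear pair was not the closest here. The pattern behind these lines is 3 cysteine codons with 6 and then 3 other codons between them. All 6 genes held it once, as did 19 of the 20 connexin genes (Gje1 did not). In the 4 beta connexin genes (Gjb) among the 6, the 3 codons were numbers 53, 60 and 64, counted from the start codon. In both alpha genes (Gja) among the 6 they were 54, 61 and 65. The pattern of the second loop, with 4 and then 5 codons between the cysteines, was held by all 6 genes and by 18 of the 20 connexin genes.

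The second-loop cysteines stood at codons 169, 174 and 180 in both Gjb2 and Gjb6. In Gjb1 they stood at 168, 173 and 179, in Gjb5 at 162, 167 and 173, and in both Gja1 and Gja3 at 187, 192 and 198. The cochlear pair therefore had all its loop cysteines at shared codon numbers, as did the alpha pair, and no other pair of the 6 genes did. In the 30 bases that end at the last of these codons, 16 positions held the same base in all 6 genes, and 22 did in Gjb2 and Gjb6. The highest count of a pair was 26, in Gjb1 and Gjb2, so the cochlear pair was not the closest here. The lines show this stretch in the cochlear pair, with the last 2 cysteine codons of the second loop in capitals.
Gjb2, chr14:57100210-57100239, minus strand: gcttggcccTGCcccaatacagtggacTGC
Gjb6, chr14:57124263-57124292, minus strand: attgaccccTGCcccaatctcgtggacTGC

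Compared base by base without gaps from the start codon to that last cysteine codon, Gjb2 and Gjb6 were identical at 416 of 540 bases (77.0%) and at 85 of 180 whole codons. Of the 124 differing bases, 28 lay at the first, 19 at the second and 77 at the third position of a codon, so that the third position held 62.1% of them. Gja1 and Gja3, compared in the same way over 594 bases, were identical at 369 (62.1%) and at 63 of 198 codons. Their 225 differing bases fell 66, 57 and 102 on the codon positions, with 45.3% at the third.

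Beyond the last loop cysteine the genes differed in length. Gjb2 had 46 codons left before its stop codon, Gjb6 had 81, Gjb5 98, Gjb1 104, Gja1 184 and Gja3 219. The ends of the cochlear pair are shown with the stop codon in capitals. Of these 30 positions 11 held the same base, against 17 in Gja1 and Gja3.
Gjb2, chr14:57100069-57100098, minus strand: tgctcaggaaagtccaaaagaccagtcTAA
Gjb6, chr14:57124017-57124046, minus strand: cagaatgcaatcacaagtttcccaagtTAA

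Over whole coding sequences, aligned globally, Gjb2 and Gjb6 shared 67.8% of the aligned columns, the highest of the 15 pairs. The next were Gjb1 and Gjb6 with 63.2%, Gjb1 and Gjb5 with 62.1%, and Gja1 and Gja3 with 60.1%. Gjb2 and Gja3 had the lowest value, 41.0%. Their coding sequences are the shortest and the longest of the 6, so most of the columns without a match are gaps by construction. Counted over the shorter coding sequence alone, the same pair reached 77.1%, second to Gjb2 and Gjb6 with 79.3%. That measure leaves out gaps, so a longer partner offers more places to match. On it Gjb1 and Gjb6 had 71.9% and Gja1 and Gja3 68.9%, both below Gjb2 and Gja3. Neither measure therefore ranks pairs of unlike length by closeness. The coding sequence, stop codon included, was 681 bases (226 amino acids) in Gjb2, 786 (261) in Gjb6, 816 (271) in Gjb5, 852 (283) in Gjb1, 1149 (382) in Gja1 and 1254 (417) in Gja3. Its GC content was 50.1% in Gjb2 and 51.1% in Gjb6, the lowest values of the 6. It was 53.4% in Gja1, 53.8% in Gjb5, 57.3% in Gjb1 and 59.2% in Gja3.

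A single coding exon was found in 16.4% of the protein-coding genes with a coding transcript (3598 of 21990), against 6 of 6 here, where the choice of genes fixes the count. The label does not name the untranslated first exon, although the genes were put together with their models known. All 6 genes had one, that is, a first exon without coding bases, spliced to the coding exon directly or, in Gjb6, through another untranslated exon. It was present in 31.9% of the genes with a single coding exon (1148 of 3598), in 42.3% of all protein-coding genes, and together with the single coding exon in 5.22% of them. Olfactory receptor genes, with symbols starting in Olfr, made up 30.6% of the genes with a single coding exon. Among the other 2496 such genes, 37.1% had an untranslated first exon.

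**Figure D1:**
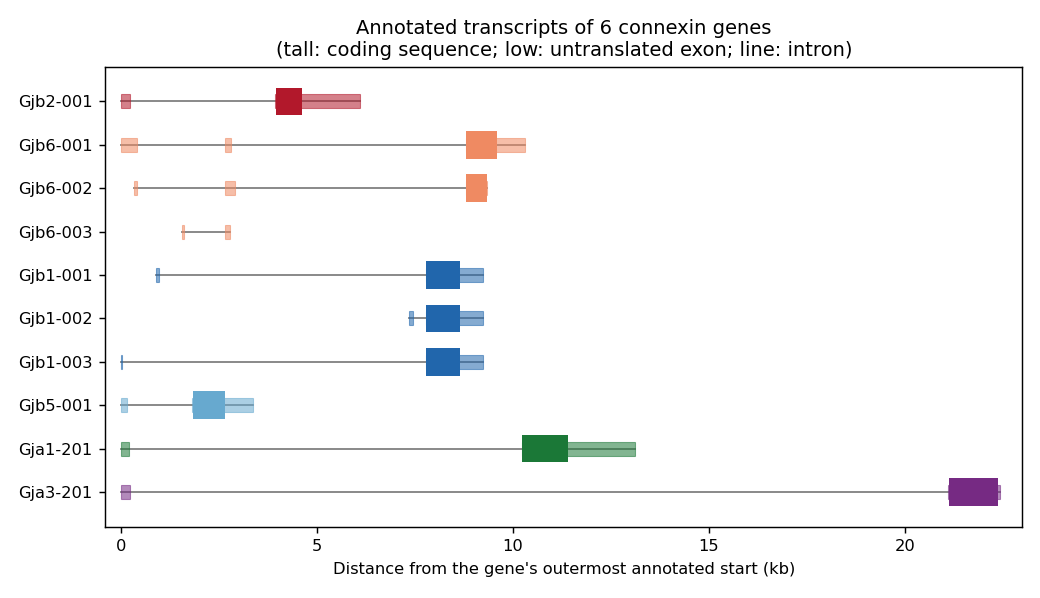
Annotated transcripts of the 6 genes, drawn to scale along the direction of transcription. The x axis is the distance from the outermost start of each gene in kb, tall boxes are coding sequence, low boxes untranslated exons and lines introns. Every coding box lies in the last exon, Gjb6 has an additional untranslated exon, and Gjb1 and Gjb6 each have 3 distinct first exons.

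Gjb2 (ENSMUSG00000046352) spanned bases 57098600 to 57104702 of chromosome 14, on the minus strand. Its only transcript, Gjb2-001, had 2 exons. The first, of 234 bases, was untranslated, and an intron of 3697 bases followed. The second exon, of 2172 bases, held the whole coding sequence and the 3' UTR of 1469 bases. The 5' UTR was 256 bases long.

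Gjb6 (ENSMUSG00000040055), from 57123303 to 57133611 on the same strand, differed from Gjb2 by an additional untranslated exon. Gjb6-001 had a first exon of 426 bases, an intron of 2221 bases, a second untranslated exon of 165 bases, an intron of 5983 bases and a coding exon of 1514 bases. Its 5' UTR of 605 bases was the longest of the 6 genes and its 3' UTR was 714 bases. Gjb6-002 started at 57133281 in place of 57133611, with a first exon of 96 bases. It used the same donor of the first exon, at 57133186, and the same acceptor of the second exon, at 57130964. The donor of its second exon was at 57130709 in place of 57130800, so that this exon had 256 bases. This model broke off inside the coding exon after 521 coding bases and had no stop codon. Gjb6-003, a processed transcript with no coding sequence, started at 57132059 with a first exon of 73 bases and was spliced to the same second-exon acceptor. Gjb6 thus had 3 distinct first exons, as many as Gjb1. Of the 3 models, Gjb6-001 alone was in the consensus coding set (CCDS). Its support level was 1, the best grade of the annotation, against 3 for Gjb6-002 and 5, the weakest, for Gjb6-003.

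Gjb1 (ENSMUSG00000047797), on the plus strand of chromosome X from 101376378 to 101385629, varied in the first exon alone. Its 3 transcripts shared the coding exon of 1478 bases and its acceptor. Gjb1-003 started at 101376378 with a first exon of 35 bases and an intron of 7739 bases. Gjb1-001 started at 101377273 with 87 bases and an intron of 6792 bases. Gjb1-002 started at 101383736 with 107 bases and an intron of 309 bases. The outermost starts lay 7358 bases apart. The 5' UTRs were 51, 103 and 123 bases long in that order, and the coding sequence and the 3' UTR of 610 bases were the same in each.

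Gjb5, Gja1 and Gja3 had 1 transcript each, with 2 exons. Gjb5 (ENSMUSG00000042357) spanned bases 127354809 to 127358181 of chromosome 4, minus strand, with a first exon of 156 bases and an intron of 1652 bases. Gja1 (ENSMUSG00000050953) spanned bases 56377300 to 56390419 of chromosome 10, plus strand, with a first exon of 219 bases and an intron of 10015 bases. Gja3 (ENSMUSG00000048582) spanned bases 57035608 to 57058030 of chromosome 14, minus strand, with a first exon of 225 bases and an intron of 20875 bases. In all, 4 of the 6 genes had a single transcript, which holds for 36.4% of protein-coding genes.

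The intron just before the coding exon varied more than any exon of these genes. In 1065 genes with a single coding exon and an untranslated first exon in the transcript of longest coding sequence, its median was 2021 bases. Only 66 of them had a longer one than Gja3, 137 a longer one than Gja1, 235 a longer one than Gjb6-001 and 366 a longer one than Gjb2. Gjb5 lay below the median, with 591 genes above it. Introns made up 93.1% of the span of Gja3-201, 79.6% of Gjb6-001, 76.3% of Gja1-201, 60.6% of Gjb2-001 and 49.0% of Gjb5-001. In Gjb1 the share was 83.6% for Gjb1-003 and 16.3% for Gjb1-002.

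The splice acceptor of the coding exon lay close to the start codon in each gene. The distance was 13 bases in Gja1, 14 in Gjb6, 16 in Gjb1, 17 in Gja3, 22 in Gjb2 and 24 in Gjb5. Gjb6 thus stood near the lower and Gjb2 near the upper end of a narrow range. Over the 1065 genes the median was 34 bases, with quartiles of 16 and 119, and 40.5% had a distance of at most 25 bases, a limit chosen after the values of the 6 genes were seen. Of the other 7 connexin genes with a single coding exon and an untranslated first exon, 4 were within 25 bases.

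**Figure D2:**
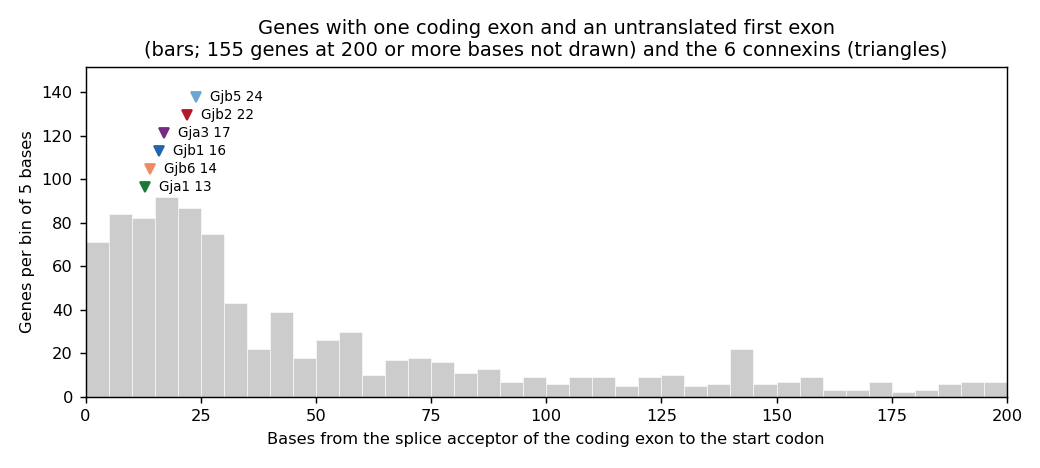
Distance in bases from the splice acceptor of the coding exon to the start codon (x axis) and number of genes per bin of 5 bases (y axis), for genes with a single coding exon and an untranslated first exon. Triangles mark the 6 connexin genes, between 13 and 24 bases, inside the most populated part of the distribution; the 155 genes at 200 bases or more are not drawn.

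The 5' UTRs of the cochlear pair were longer than those of the other 4 genes. The longest 5' UTR was 605 bases in Gjb6 and 256 in Gjb2, then 242 in Gja3, 232 in Gja1, 180 in Gjb5 and 123 in Gjb1. Gjb2 exceeded Gja3 by few bases, whereas Gjb6 stood apart, with 426 bases in its first exon and 165 in its additional exon. In the GENCODE M21 models the values of Gja1 (335 bases) and Gja3 (312 bases) were above that of Gjb2, and Gjb6 was still the highest. Over 19932 protein-coding genes with a 5' UTR the median was 195 bases. A longer one than in Gjb6 was found in 7.53% of them, and a longer one than in Gjb2 in 38.2%. Over the 1148 genes with a single coding exon and an untranslated first exon the median was 299 bases, with 157 genes above Gjb6 and 663 above Gjb2.

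The 3' UTRs did not separate the cochlear pair from the others. Gja1 had the longest with 1724 bases, followed by Gjb2 with 1469, Gjb5 with 725, Gjb6 with 714, Gjb1 with 610 and Gja3 with 52. The median over 19943 protein-coding genes with a 3' UTR was 851 bases, which Gja1 and Gjb2 exceeded. A longer 3' UTR was found in 27.0% of these genes for Gja1, in 32.3% for Gjb2, in 54.7% for Gjb5, in 55.1% for Gjb6, in 59.1% for Gjb1 and in 97.2% for Gja3. The value of Gja3 depends on the annotation: in M21 its 3' UTR was 1200 bases, and it was the 1 gene of the 6 whose longest 3' UTR was over 100 bases longer there, against 6.93% of 19718 protein-coding genes. The coding share of the spliced transcript followed from these lengths: 28.3% in Gjb2-001, 37.0% in Gja1-201, 37.3% in Gjb6-001, 47.4% in Gjb5-001 and 81.0% in Gja3-201.

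**Figure D3:**
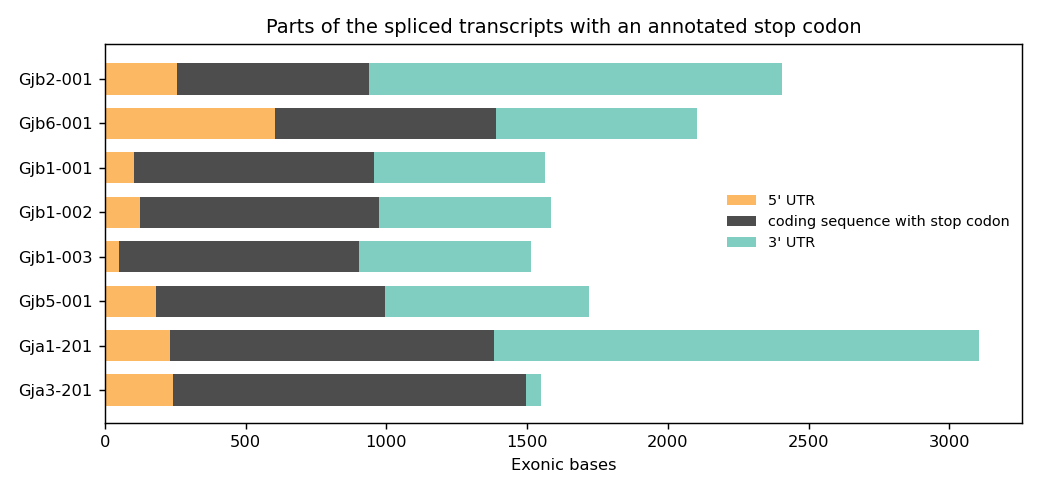
Exonic bases (x axis) of the 8 transcripts with an annotated stop codon, split into 5' UTR, coding sequence with stop codon and 3' UTR. Gjb2-001 is mostly 3' UTR, Gjb6-001 has the longest 5' UTR, and Gja3-201 ends 52 bases after its stop codon.

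**Figure D4:**
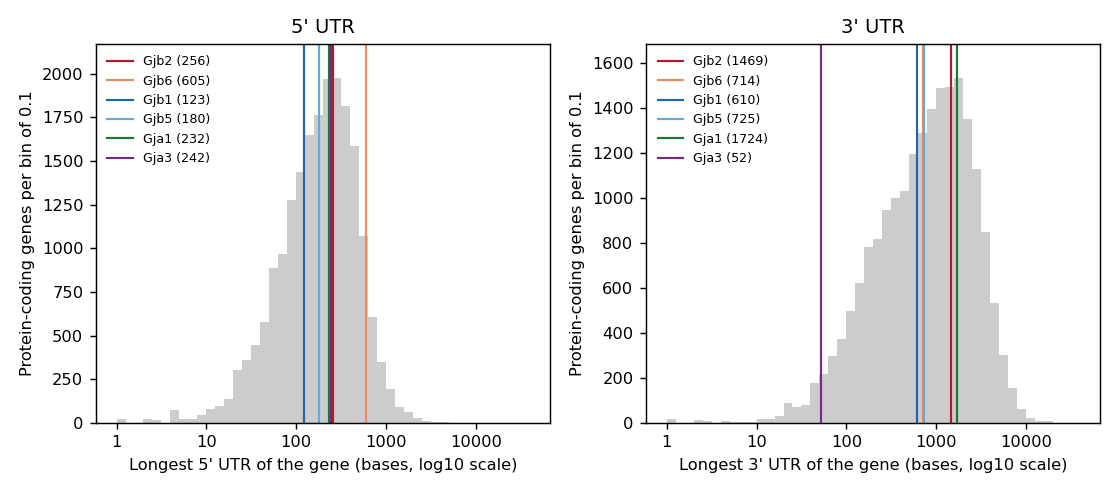
Longest 5' UTR (left) and longest 3' UTR (right) of each protein-coding gene on a log10 scale (x axis), with the number of genes per bin of 0.1 (y axis, bars). Lines mark the 6 connexin genes with their lengths in bases; Gjb6 lies in the upper part of the 5' UTR distribution and Gja3 in the lower tail of the 3' UTR distribution.

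Because the kit reads 3' ends, the last 500 exonic bases of each model were examined. They held no coding base in Gjb2-001, Gjb6-001, Gjb5-001, Gja1-201 and the 3 Gjb1 transcripts. In Gja3-201, 448 of them (89.6%) were coding, against 0 in the M21 model of that transcript. In the incomplete model Gjb6-002 all 500 were coding. No exon of another gene lay in these windows on the same strand in any of the 6 genes, against 2.51% of protein-coding genes with such an exon. The count was 0 of 6 on either strand too, against 11.8%. With shares this low in the background, a count of 0 in 6 genes does not set them apart. How many reads fell in these windows was not analysed here.

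The polyadenylation signals AATAAA and ATTAAA were searched on the transcript strand in the last 50 bases of the M21 transcripts, whose ends are those of the deposited models for Gjb1, Gjb2, Gjb5 and Gjb6. AATAAA began 25 bases before the end of Gjb6 and 21 bases before that of Gjb5. The variant ATTAAA began 41 bases before the end of Gjb2 and 27 bases before that of Gjb1. The cochlear pair thus differed in the signal found. In M21, 52.8% of 44761 protein-coding transcripts with a 3' UTR held AATAAA in this window, 15.3% held ATTAAA and 65.2% held either. In the last 50 bases before the deposited end of Gja3 neither was found, which says no more than that these letters are not in that window.

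Gjb2 and Gjb6 were neighbours in a group with Gja3 on chromosome 14, all on the minus strand. In the direction of transcription the order was Gjb6, Gjb2, Gja3. The gap between the gene bodies of Gjb6 and Gjb2 was 18600 bases and that between Gjb2 and Gja3 was 40569 bases. No gene was annotated between Gjb2 and Gja3. Between Gjb6 and Gjb2 lay 1 gene, Gm4491, annotated as protein-coding on the same strand from 57112506 to 57115883, 7419 bases from Gjb6 and 7803 bases from Gjb2. On the outer sides the nearest genes were Cryl1, a crystallin-like gene 141422 bases beyond Gjb6, and B020004C17Rik, 16625 bases beyond Gja3 on the opposite strand. The nearest genes differed in GENCODE M21, which also holds pseudogenes: the nearest beyond Gjb6 was Gm48725, a processed pseudogene at 45366 bases. The median gap between adjacent protein-coding genes was 13424 bases; both gaps beside Gm4491 were below it and the gap between Gjb2 and Gja3 was above it.

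**Figure D5:**
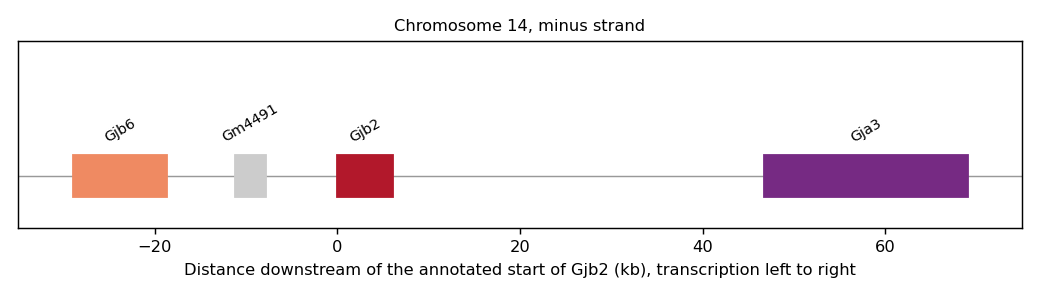
Gene bodies of the connexin group on chromosome 14, with the distance downstream of the start of Gjb2 in kb on the x axis and transcription from left to right. Coloured boxes are the connexin genes and the light grey box is Gm4491; the gap from Gjb6 to Gjb2 is 18600 bases and that from Gjb2 to Gja3 is 40569 bases.

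Gjb5, on chromosome 4, had Gja4, a connexin gene known from blood vessels (127311421 to 127314039), on the same strand 40769 bases downstream. On its upstream side the nearest gene was 4930471C06Rik, a long intergenic non-coding RNA gene 116666 bases away. In M21 the pseudogene Gm12947 lay nearer on that side, at 50197 bases.

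Gja1 and Gjb1 had no connexin gene nearby. The nearest one on the same chromosome was Gje1 for Gja1, 41659085 bases away, and Gja6 for Gjb1, 59516486 bases away. The neighbours of Gjb1 were Nlgn3, a neuroligin gene, at 50414 bases and Zmym3, a zinc finger gene, at 18754 bases. Those of Gja1 were Tbc1d32 at 148610 bases and Gm9956 at 354714 bases. In M21 the nearest gene downstream of Gja1 was the non-coding RNA gene Gm36595 at 29467 bases, and the neighbours of Gjb1 were the same as here. Of the 20 connexin genes, spread over 9 chromosomes, 9 had another connexin gene within 100000 bases, 4 of the 6 described here among them.

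The other 14 connexin genes show which of these features the 6 genes share with their family. A single coding exon was annotated in 9 of the 14, an untranslated first exon in 8 and both in 7. In at least 1 transcript the coding sequence was split over 2 exons in Gja5, Gjc3, Gjd2 and Gjd4 and over 3 in Gje1. The 3 pannexin genes Panx1, Panx2 and Panx3, whose products are channel proteins of a separate family, had up to 5, 4 and 4 coding exons.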

How the data were processed

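The values come from the deposited GTF annotation, which covers the series as a whole and, per the file headers, uses GRCm38 with patch 4. It holds positions in bases and 0 columns of per-sample values, so depth and tests between the GFP and Ikzf2 libraries concern no value here. Cell Ranger 2.0.2 is named in the submitters' processing notes, with no role given. The added models were left out.

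Coding sequence includes the stop codon. Coding transcripts are protein-coding transcripts with coding sequence, which 21990 of the 22048 protein-coding genes had. UTR lengths are the longest over these transcripts. GENCODE M21, also on GRCm38, gave sequences and a second set of models. Promoter windows came from RefSeq on GRCm38.p6, and all 6 genes matched by symbol. Global alignments used match 1, mismatch -1, gap opening -2 and gap extension -0.5 in Biopython 1.88, under Python 3.11.15 with NumPy 2.4.6 and Matplotlib 3.10.9. The model code was tested on simulated data, with the right answer for 200 of 200 gene models. No test was run, since the models are fixed features. The genes and lists were chosen with earlier results of these data known. Named were the 6 genes, connexin genes within 1000000 bases of them or with several coding exons, and nearest genes; some genes near Gjb5 are not reported here. Proteins were not used here, so coding sequences replaced the planned comparison of proteins.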

Additional observations from a re-analysis of the deposited data

How the results depend on the processing

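The counts of 6 genes with a single coding exon and 6 with an untranslated first exon were the same with transcripts that have both a start and a stop codon, with CCDS transcripts and with the M21 models. The share of protein-coding genes with a single coding exon ran from 14.7% (CCDS transcripts) to 16.8% (longest coding sequence only). Taking the median over transcripts gave 5' UTRs of 103 bases in Gjb1 and 485.5 bases in Gjb6. With the M21 models the 3' UTR was 1200 bases in Gja3 and 1720 in Gja1. The M21 5' UTR was 335 bases in Gja1, in the incomplete model Gja1-202, and 312 in Gja3. With these values the 5' UTR of Gjb2, 256 bases, was no longer above those of Gja1 and Gja3. The distinct first exons in M21 numbered 8 in Gja1 (7 with starts within 100 bases merged), 4 in Gjb6 and 2 in Gja3. The counts of Gja1 and Gjb6 include a model with a retained intron, which has 1 exon and so no splice donor. These shifts come from the other models themselves. Measured from start to start, by construction another quantity than the gap between gene bodies, the nearest connexin lay 28909 bases from Gjb2 and from Gjb6, 46672 from Gja3, 41659086 from Gja1 and 59530674 from Gjb1. The counts of genes between neighbours, and of shared 3' windows with 200 or 1000 bases or either strand, did not change. The identity of Gjb2 and Gjb6, with alternatives chosen after seeing the data, was 68.0% with other alignment scores and 79.3% over the shorter coding sequence. The planned identity of proteins was not run. No paired analysis was possible because GFP and Ikzf2 have 1 library each and the annotation has no value of a library; leaving out a replicate was not possible either.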

Other observations

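The models of Gja1 and Gja3 differed between the deposited annotation and GENCODE M21, whereas those of Gjb1, Gjb2 and Gjb5 were identical. Of the 10 deposited transcripts, 8 had the same exons in M21, which held 19 for the 6 genes. In M21 the 3' end of the coding transcript of Gja3 lay 1148 bases further out, with the coding sequence at the same place, its 3' UTR was 1200 bases long against 52, and AATAAA began 20 bases before the new end. For Gja1, M21 held 8 transcripts against 1. Of the 7 with an intron, 6 used the deposited acceptor 13 bases before the start codon, while 1 passed over the coding exon and ran to 56402513. The 3' UTR of Gja1 was 1720 bases against 1724, and AATAAA began 24 bases before the M21 end. Gjb6 gained 1 transcript, with a retained intron. B020004C17Rik, the neighbour of Gja3, was protein-coding in the deposited annotation and a long intergenic non-coding RNA in M21.

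RefSeq held 10 promoter windows for the 6 genes, each from 250 bases before to 50 after a start. The RefSeq start was the deposited one for Gjb2 (57104702), Gjb6 (57133611) and Gja1 (56377300). For Gjb5 it lay 17 bases downstream. Gja3 had a second RefSeq start 307 bases downstream of the deposited start, and Gjb1 had 4 starts, 3 of them 2, 38 and 4 bases upstream of the deposited first exons. The other, at 101382118, lay 1618 bases upstream of the start of Gjb1-002 and had no deposited first exon. GC content of the window was 70.0% for Gjb2 and 57.3% for Gjb6, against a median of 52.7% over 32817 windows. The highest value of the 10 was 76%, at the second Gja3 start, and the other Gja3 window had 63.3%. The windows of Gjb1 ran from 43.3% to 60%, that of Gjb5 had 54.3% and that of Gja1 47.7%. The motif GGGCGG, on either strand, occurred 2 times in the window of Gjb2 and 0 times in that of Gjb6; 3 of the 10 windows held it, against 35.6% of all windows. TATAAA occurred in neither gene of the cochlear pair and in 3 of the 10 windows, against 13.6% of all. CCAAT occurred in neither and in 4 of the 10, against 37.4%, and these were windows of Gjb1 and Gjb5 alone. The 10 windows are not separate genes, since Gjb1 and Gja3 had more than 1 each. None of these motifs contains another, and a match describes the letters alone.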
